A study of Caenorhabditis elegans with 2 samples.

Results

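The genes described belong to the sex determination cascade of Caenorhabditis elegans, from her-1 downstream. They are her-1, the genes that follow it (tra-2, tra-3, fem-1, fem-2, fem-3 and the terminal regulator tra-1), and the germline genes fog-1, fog-2 and fog-3. These 10 genes were chosen by name, among 19973 protein-coding genes of the nuclear chromosomes, and all 10 lie on autosomes. The binding of SDC-2 was measured by ChIP-seq (chromatin immunoprecipitation followed by sequencing) in strain OP92, a stable transgenic line whose SDC-2 carries GFP and FLAG at the C terminus. The 1 group consists of 2 biological replicates of whole hermaphrodite embryos, late embryonic stage, taken 3.25 hours after synchronization by egg bleaching, with an anti-GFP antibody. The sources used here give neither promoter nor copy number of the tagged gene, no other genotype, sex or stage was compared, and peaks of whole embryos do not tell which cells held SDC-2.

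HER-1 is a secreted protein that drives male development. It binds the membrane receptor TRA-2 and blocks it, which frees the FEM proteins to have the zinc finger protein TRA-1, the regulator of female fates, degraded. In hermaphrodites SDC-2 keeps her-1 off, and the same protein brings the dosage compensation complex to both X chromosomes, so her-1 is the autosomal gene known as a target of SDC-2. The gene has 2 promoters, the inner of which lies in the large intron and gives a short transcript.

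For each gene every peak with its summit in the gene or within 10000 bp on either side was read from 4 lists. These were the list of peaks kept by the authors' test of repeatability, the irreproducible discovery rate (IDR), the longer list called on both replicates pooled, and the list of each replicate. The authors label the longer list as peaks and background, used as input for the IDR test. An entry of it, called a pooled peak here, is therefore not by itself a site of SDC-2 binding. Of its autosomal entries, 30.1% had a summit within 100 bp in both replicate lists. Signal is the value that the authors' peak caller gave to each peak, used here within a list only, and rank 1 is the strongest nuclear peak of a list. The lists held 1343 IDR peaks, 26639 pooled peaks, 25174 peaks in replicate 1 and 24434 in replicate 2, and X held 41.9% of the IDR peaks. The lowest IDR signal was 82.4. Read depth is unknown, since the lists give no counts, and with 2 libraries of 1 group the results are descriptions without tests.

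The sequences at the 3 peaks inside her-1 are shown first, because her-1 is the gene with a known role as SDC-2 target, followed by those at the IDR peaks nearest to tra-2 and fem-2. They were read from the RefSeq genome of build WBcel235 (ce11) in the direction of the gene named. Capitals mark an 8-mer known to lead at SDC-2 summits of these lists, or, where none is present, the summit base with 5 bases on each side.
her-1, intron 2, V:9698263-9698363, plus strand: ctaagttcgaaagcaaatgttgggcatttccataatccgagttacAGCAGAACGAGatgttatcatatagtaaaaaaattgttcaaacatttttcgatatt
her-1, intron 2, V:9698964-9699064, plus strand, with 2 overlapping 8-mers: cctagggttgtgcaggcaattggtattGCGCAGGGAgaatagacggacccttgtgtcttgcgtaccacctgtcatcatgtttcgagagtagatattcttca
her-1, intron 2 up to the inner 5′ end, V:9700670-9700769, plus strand: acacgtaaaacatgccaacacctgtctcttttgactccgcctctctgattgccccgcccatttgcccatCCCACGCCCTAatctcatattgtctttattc
tra-2, 2930 bp upstream, II:6968503-6968703, minus strand: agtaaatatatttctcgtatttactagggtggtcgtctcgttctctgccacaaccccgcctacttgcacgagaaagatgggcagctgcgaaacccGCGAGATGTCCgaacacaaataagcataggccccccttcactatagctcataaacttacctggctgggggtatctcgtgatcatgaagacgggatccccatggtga
fem-2, 5978 bp upstream, III:640504-640704, minus strand: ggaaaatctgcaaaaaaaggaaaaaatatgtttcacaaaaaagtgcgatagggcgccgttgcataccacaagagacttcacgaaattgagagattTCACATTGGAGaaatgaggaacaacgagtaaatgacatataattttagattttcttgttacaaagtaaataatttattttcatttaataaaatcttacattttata

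At her-1 (V:9697015-9702035, plus strand) pooled peaks were more numerous than the mean autosomal density gives, but most lay outside the gene. No IDR peak lay in the gene or within 10000 bp, and the gene was 29226 bp away from the closest one. The pooled list had 10 summits in this window, 4.0 per 10 kb, where chromosome V had 2.04 per 10 kb. A density as high was found around 15.6% of the 17242 autosomal protein-coding genes, so her-1 lay in the upper part of a wide range and not apart from it. Replicate 1 listed 8 summits there and replicate 2 listed 7, and 3 of the 10 pooled summits had a summit within 100 bp in both.

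The strongest peak of the her-1 window lay upstream of the gene, not in it. It was found at V:9692144-9692593, with its summit 4646 bp upstream of the outer her-1 5′ end, and had a pooled signal of 81.6 and rank 1375, which is 32 ranks below the last IDR peak. The replicates gave it signals of 41.0 (rank 1376) and 38.7 (rank 2078), with summits 0 and 1 bp from the pooled summit. It was the highest-ranked peak of the window in both replicate lists. Its summit lay 210 bp upstream of the 5′ end of ztf-9, a zinc finger gene on the opposite strand, inside the small noncoding RNA gene ZK287.11, with the gene ZK287.7 between it and her-1. These genes lie closer to the summit than her-1 does, and the lists do not assign a peak to a gene.

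A further upstream peak, at V:9690673-9691122, had its summit 6117 bp upstream of her-1 and 376 bp upstream of rbx-1, a RING finger gene of ubiquitin ligases. Its signal was 61.5 in the pooled list (rank 2777), 24.5 in replicate 1 (rank 5923) and 35.6 in replicate 2 (rank 2588). Downstream, a peak in an intron of xbx-6 at V:9704097-9704546 had a pooled signal of 51.5 (rank 4368), 26 in replicate 1 with a summit 91 bp away, and 23.6 in replicate 2. These and the peak near ztf-9 are the 3 that both replicates listed, and all 3 lie outside her-1.

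The remaining peaks outside the gene had signals of 24.8 to 29.4. They lay in the coding sequence of rbx-1 (26.7, rank 19917), beside the peak near ztf-9 (24.8, rank 22606), in xbx-6 (27.7, rank 18468) and in an intron of tag-120 (29.4, rank 16467). The one of signal 24.8 was listed by neither replicate, and each of the others by 1.

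Inside her-1 there were 3 pooled peaks, and all 3 had their summits in intron 2 of the long transcript, which is 3338 bp long. The peak closest to a promoter, at V:9700519-9700968, had its summit 26 bp upstream of the inner 5′ end, which lies 3755 bp downstream of the outer one. Its pooled signal was 36.0 (rank 10706). Replicate 2 listed it 3 bp away with a signal of 16.2 (rank 18818), and replicate 1 had no summit within 100 bp. The other 2 had their summits 1298 bp and 1999 bp downstream of the outer 5′ end, with pooled signals of 32.8 (rank 13104) and 33.1 (rank 12882).

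The replicates differed inside the gene. Replicate 1 listed the summit at 1298 bp (23.9, rank 6301) and another one 1473 bp downstream (15.2, rank 18889), while replicate 2 listed those at 1999 bp (20.4, rank 11398) and at the inner 5′ end. No summit inside her-1 was therefore shared by both lists. At the outer promoter the pooled list held no summit within 1000 bp, and replicate 1 had 1 weak peak, 554 bp upstream, with a signal of 13.6 and rank 23370. The signals inside the gene were close to the pooled list's autosomal median of 32.2, so her-1 itself carried peaks of the common weak kind in these lists.

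**Figure D1:**
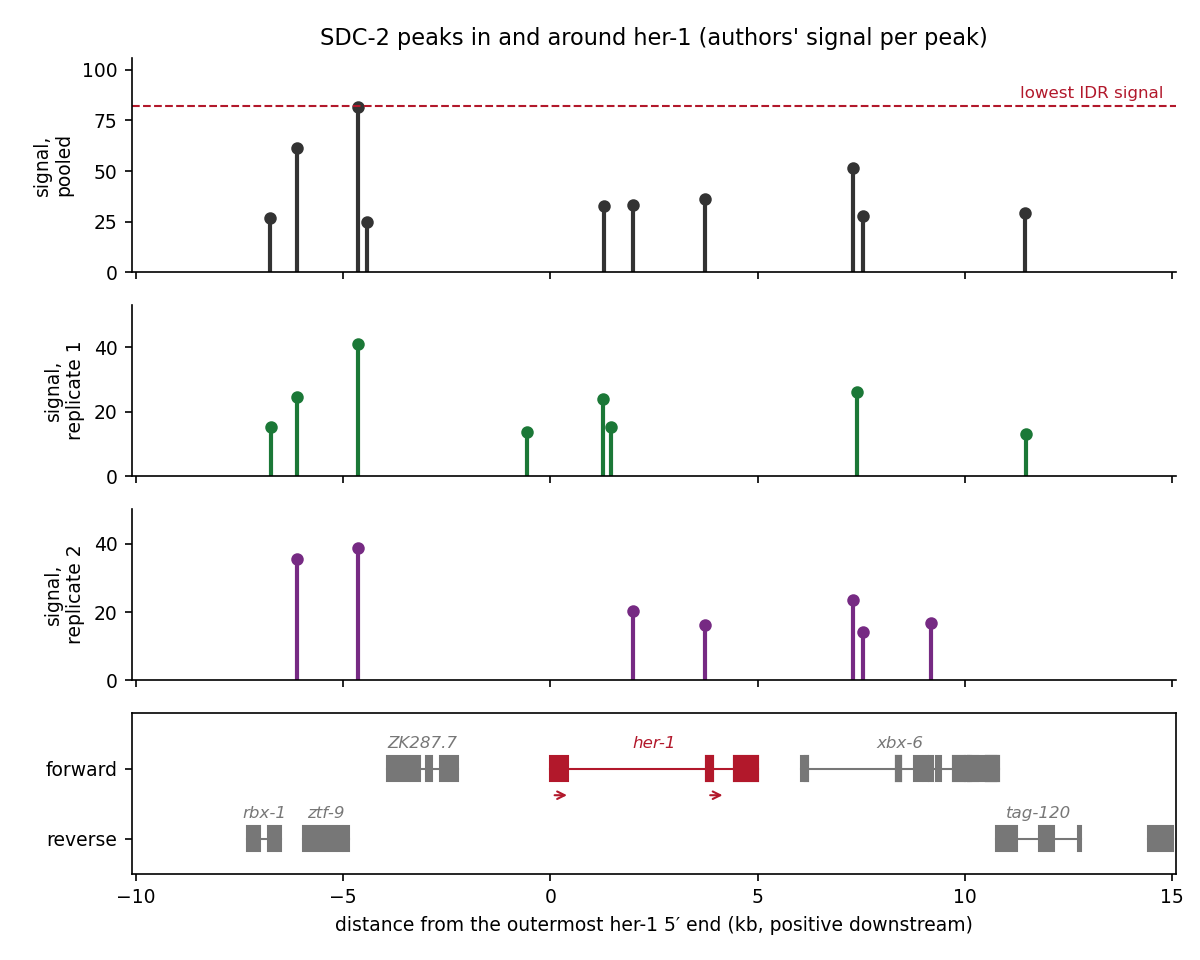
Signal of each SDC-2 peak in the her-1 window (vertical axes, the authors' signal on a separate scale per list) against the distance of its summit from the outer her-1 5′ end in kb, for the pooled list and both replicates, with exons of protein-coding genes by strand below and arrows at both her-1 5′ ends. The strongest peak, 4646 bp upstream, reaches 81.6 against the lowest IDR signal of 82.4 (dashed line) and is seen in both replicates, while the 3 pooled peaks inside her-1 reach 32.8 to 36.0.

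The weak peak 1999 bp into her-1 stood on a sequence that is typical of the strongest X sites. The 8-mers CGCAGGGA and CCCTGCGC, searched on both strands, overlap in 7 bases, lie in the recruitment motif of the dosage compensation complex known as MEX, and were more frequent at X than at autosomal summits in earlier work on these lists. At this her-1 peak they form the 9-mer GCGCAGGGA, whose CGCAGGGA is centred 18 bp from the pooled summit. No other pooled summit of the 10 genes had the 9-mer within 100 bp, a share of 1.3% of 77 windows. Of all autosomal pooled windows 8 of 20925 held it (0.0382%), against 20 of 5714 X pooled windows (0.35%). At IDR summits it was in 18 of 563 windows on X (3.2%) and in 0 of 780 on autosomes.

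Read from the genome, the 9-mer occurred 79 times on autosomes and 34 times on X. Within 100 bp of a pooled summit lay 8 of the 79 autosomal copies (10.1%, where 5.09% of autosomal bases are that close) and 22 of the 34 X copies (64.7%, where 6.48% of bases are). In replicate 1 alone 5 of the 79 autosomal copies were that close to a summit (6.33%), and in replicate 2 alone 10 were (12.7%). The share of bases was computed for the pooled list only. Set against its 5.09%, the value of replicate 1 was near and that of replicate 2 higher. The copy in her-1 is thus 1 of 8 autosomal copies at a pooled summit. The best of these 8 had rank 5125, and 3 ranked below the her-1 peak, whereas the median rank at the X copies was 15.5. The 9-mer was singled out after its presence at her-1 had been seen, and replicate 1 had no summit within 100 bp of this her-1 peak.

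The other 8-mers searched, AGACGCAG and GAGACGCA (which overlap in 7 bases) and GAGAGAGA, lead at both X and autosomal summits. Of the 77 summit windows of the 10 genes, 6 held AGACGCAG (7.79%, against 4.06% of autosomal pooled windows), 7 held GAGACGCA (9.09% against 3.84%) and 5 held GAGAGAGA (6.49% against 4.71%). At a peak of signal 69.4 downstream of fem-2 (rank 2017), beside the noncoding RNA gene T19C3.11, all 3 lay within 8 bp of the summit. Among autosomal IDR windows the shares were 12.2%, 12.3% and 12.7%. A match describes the letters in the window, and the IDR peaks near tra-2, fem-2 and fog-3 held none of the 5 8-mers.

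Of the 10 genes, 3 had an IDR peak in their window (exact 95% interval of the share 6.67 to 65.2%), against 18.8% of all autosomal protein-coding genes. Within 1000 bp of their annotated 5′ ends none of the 10 had any, where 3.6% of autosomal genes did. The 3 were tra-2, fem-2 and fog-3, each with 1 IDR peak, and in all 3 the summit lay closer to the start of a neighbouring gene. Their ranks, 913, 1106 and 1319 of 1343, put all 3 in the weaker part of the IDR list. The interval takes the 10 genes as independent draws, though they were chosen by name. It shows only how few genes there are, and the share was not tested against the background.

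The receptor gene tra-2 (II:6955384-6965673, minus strand) had the strongest peak of the 10 windows. It lay at II:6968378-6968827, with the summit 2930 bp upstream of tra-2, in an intron of C15F1.5 and 955 bp upstream of eif-2Bgamma, which encodes a translation initiation factor subunit and lies between the peak and tra-2. The 5′ end of sup-39, annotated as a small nuclear RNA gene, was 45 bp from the summit. The signal was 97.7 in the pooled list, 35.2 in replicate 1 (rank 2108) and 65.9 in replicate 2 (rank 574), so replicate 2 ranked it higher. The tra-2 window held 10 pooled summits, none of them inside tra-2 and 5 listed by both replicates. The closest to the gene was a weak one in an exon of the homeobox gene ceh-38 (24.4, rank 23302), and stronger ones lay at flcn-1 (71.2, rank 1890) and at the ceh-38 5′ end (60.1, rank 2959).

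The gene tra-3 (IV:14436445-14444183, minus strand) encodes a calpain protease that acts on TRA-2, and of the 10 windows its strongest peak ranked lowest in the pooled list. This peak, 2993 bp upstream at IV:14446951-14447400, had a pooled signal of 37.4 and rank 9788, with 21.4 in replicate 1 (rank 8585) and 14.3 in replicate 2 (rank 23700). A best rank as good was reached around 74.0% of autosomal genes. The peak nearest to its start, 975 bp upstream, had a signal of 30.7 and was listed by replicate 1 with 16.9. Replicate 1 listed 8 summits in this window and replicate 2 listed 3.

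The FEM genes encode an ankyrin repeat protein (fem-1), a protein phosphatase (fem-2) and a protein of no known family (fem-3) that act together with the CUL-2 ubiquitin ligase on TRA-1. At fem-1 (IV:5533140-5537962, minus strand) a peak had its summit 46 bp upstream of the 5′ end. Its pooled signal was 38.7 (rank 9080), and replicate 2 listed it with 30.5 (rank 3996) while replicate 1 had no summit within 100 bp. Replicate 1 did list an overlapping peak with its summit 39 bp downstream of a fem-1 5′ end (14.1, rank 21969). The best peak of the fem-1 window, 58.1 (rank 3229), lay in an intron of unc-5, a netrin receptor gene, with 21.3 in replicate 1 and 38.9 in replicate 2.

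At fem-2 (III:632019-634626, minus strand) the IDR peak at III:640379-640828 had its summit 5978 bp upstream of the gene and 186 bp upstream of tag-267. Its signal was 90.4 in the pooled list and 53.1 in replicate 2 (rank 951). In replicate 1 the nearest summit, 61 bp away, had 15.2 (rank 19004), and a stronger one 5831 bp upstream of fem-2 had 26.9 (rank 4515). This IDR peak was therefore carried mainly by replicate 2. A peak 136 bp inside fem-2 (34.9, rank 11461) had no summit within 100 bp in either replicate list. Replicate 1 did list an overlapping peak beyond that limit, with its summit 277 bp inside the gene (26.9, rank 4534). A pooled peak in the coding sequence of fem-2 (41.9, rank 7543) was listed by both, with 14.4 and 28.2.

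The gene fem-3 (IV:9104966-9107607, plus strand) had 4 pooled summits, at 1.77 per 10 kb the lowest density of the 10. The best, at IV:9107452-9107901, lay just downstream of the gene in intergenic sequence before aly-1, an mRNA export gene, at pooled rank 4790, with signals of 29.4 in replicate 1 (rank 3531) and 20.4 in replicate 2 (rank 11325). A peak 38 bp inside the first exon had a signal of 22.6 and rank 26341, close to the end of the list.

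The terminal regulator tra-1 (III:11170890-11195201, minus strand) had the most peaks, 18 in the longest window of 44.3 kb, of which 12 lay inside the gene and 8 were listed by both replicates. At 4.06 per 10 kb its density was close to that of her-1, while chromosome III as a whole had 2.99 per 10 kb. The strongest, at III:11171578-11172027, lay in untranslated exon sequence near the 3′ end, 23398 bp from the 5′ end, with a signal of 76.6 (rank 1599), 24.1 in replicate 1 (rank 6203) and 47.3 in replicate 2 (rank 1225). Of the 10 genes tra-1 was the one with the strongest peak inside its own body. Peaks in its introns reached 60.3 (rank 2933) and 50.4 (rank 4632), both listed by both replicates. At the tra-1 start the pooled list had 1 peak, 758 bp upstream, with a signal of 25.0 and rank 22293. Replicate 1 also listed a summit 593 bp upstream, with 22.4 (rank 7529).

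The fog genes direct germ cells to sperm. FOG-1 is an RNA-binding protein of the CPEB family, FOG-3 a Tob family protein and FOG-2 an F-box protein that acts with GLD-1 on tra-2 mRNA. At fog-3 (I:10016765-10018121, plus strand) the IDR peak at I:10025859-10026308 lay 9319 bp downstream of the 5′ end and 104 bp upstream of rae-1, an mRNA export gene. Its signal was 83.3 in the pooled list, 53.6 in replicate 1 (rank 713) and 29.8 in replicate 2 (rank 4215), so here replicate 1 ranked it higher. No pooled summit lay in fog-3 or within 1000 bp of it.

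The gene fog-1 (I:3211046-3217267, plus strand) had 6 pooled summits, the best one 2437 bp upstream in an intron of Y54E10A.17 with a signal of 42.8 (rank 7130), listed by replicate 2 with 23.0. Its nearest IDR summit was 275306 bp away, the farthest of the 10. The gene fog-2 (V:20199254-20200648, plus strand) had 4 pooled summits, none in the gene and none listed by both replicates. The best of them, 48.7 (rank 5133), lay 3426 bp upstream, beside Y113G7B.28, where replicate 2 listed a summit 88 bp away with 16.5 (rank 18047). Replicate 1 had an overlapping peak there, with its summit 3258 bp upstream (28.5, rank 3881). That summit was matched to the adjoining pooled one, 3225 bp upstream (31.1, rank 14689), so neither counts as listed by both.

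**Figure D2:**
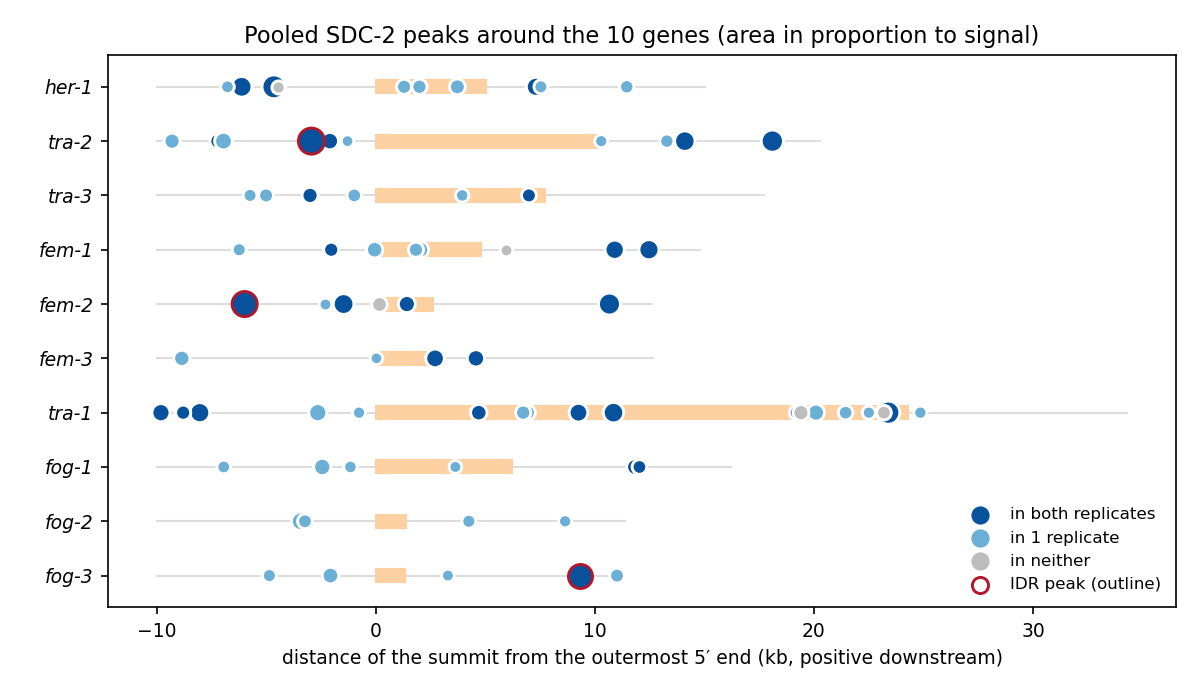
Position of the 77 pooled SDC-2 summits around the 10 genes, as distance in kb from the outermost 5′ end, with gene bodies as bars, windows as grey lines, the area of a point in proportion to the pooled signal and its colour giving the number of replicate lists with a summit within 100 bp. The 3 outlined IDR peaks lie outside tra-2, fem-2 and fog-3, tra-1 holds 12 summits in its body, and her-1 has its largest point upstream of the gene.

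Set against the other 9 genes, her-1 was among the upper 5 and did not stand apart. By the strongest pooled peak of each window her-1 was in place 4 (rank 1375), after tra-2 (913), fem-2 (1106) and fog-3 (1319) and before tra-1 (1599), with tra-3 (9788) last. In replicate 1 her-1 took place 2, behind fog-3 (rank 713), and in replicate 2 place 5. The SD of its place between replicates, 2.12, covers the neighbouring places, so the order among the first 5 genes is not resolved. A best rank as good as that of her-1 was found around 19.2% of autosomal genes. This share had to be close to that of genes with an IDR peak in the window. The IDR peaks are the strongest of the pooled list, and the her-1 rank is 32 below the last of them.

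When the window was narrowed to the gene and 1000 bp on either side, the best her-1 rank was 10706 and its place 5, after tra-1 (1599), fem-3 (4790), fem-2 (7543) and fem-1 (8905). In this window tra-2 (23302) and fog-1 (24661) had 1 weak peak each, and fog-2 and fog-3 had none. So no gene of the 10 had an IDR peak in or next to its body, and the known target did not rank first.

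**Figure D3:**
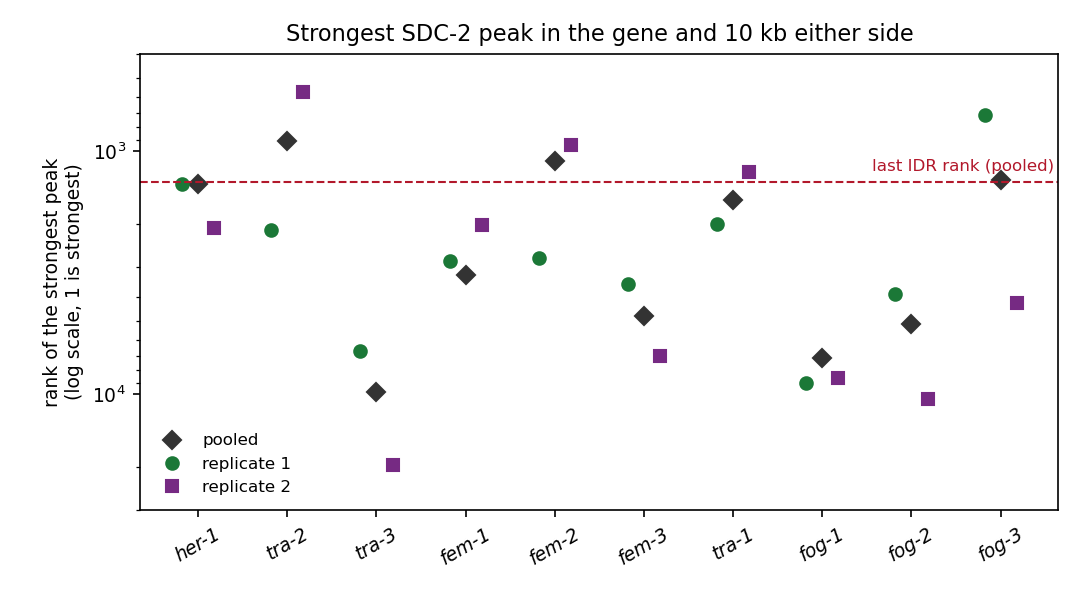
Rank of the strongest peak in the gene and 10 kb either side (log axis, strongest at the top) for each of the 10 genes in the pooled list and in each replicate, with the last IDR rank as a dashed line. The pooled ranks of tra-2, fem-2 and fog-3 lie above the line and that of her-1, 1375, lies just below it, and the replicates differ most at fog-3, tra-2, fem-2 and tra-3.

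Taken over all 10 windows, 266 kb in all, the pooled list held 77 summits, where the mean autosomal density of 2.53 per 10 kb gives 67.5. There were 3 IDR peaks, where the autosomal density gives 2.52. The median signal of the 77 was 33.3, and that of all autosomal pooled peaks was 32.2. Counts ran from 4 (fem-3 and fog-2) to 18 (tra-1). Those of her-1, tra-2, fem-1, fem-2 and tra-1 lay above the number that the autosomal density gives for their lengths. At fem-2 this was only 6 against 5.73, and its 2.65 per 10 kb was below the 2.99 of chromosome III.

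Both replicate lists had a summit within 100 bp of 30 of the 77 pooled summits, 39% (exact interval 28.0 to 50.8%), against 30.1% of all autosomal pooled peaks. A further 42 were found in 1 replicate and 5 in neither. The interval takes the 77 summits as independent, though some lie close together, and the difference in share was not tested. Between the genes the number found in both went from 0 of 4 at fog-2 to 4 of 6 at fem-2. The number depends on the match limit, with 17 in both replicates at 50 bp, 41 at 200 bp and 46 at 500 bp. Among the 44 of the 77 in the stronger part of the pooled list, 57.1% against 48.8% of autosomal peaks, 27 were in both replicates at 100 bp.

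**Figure D4:**
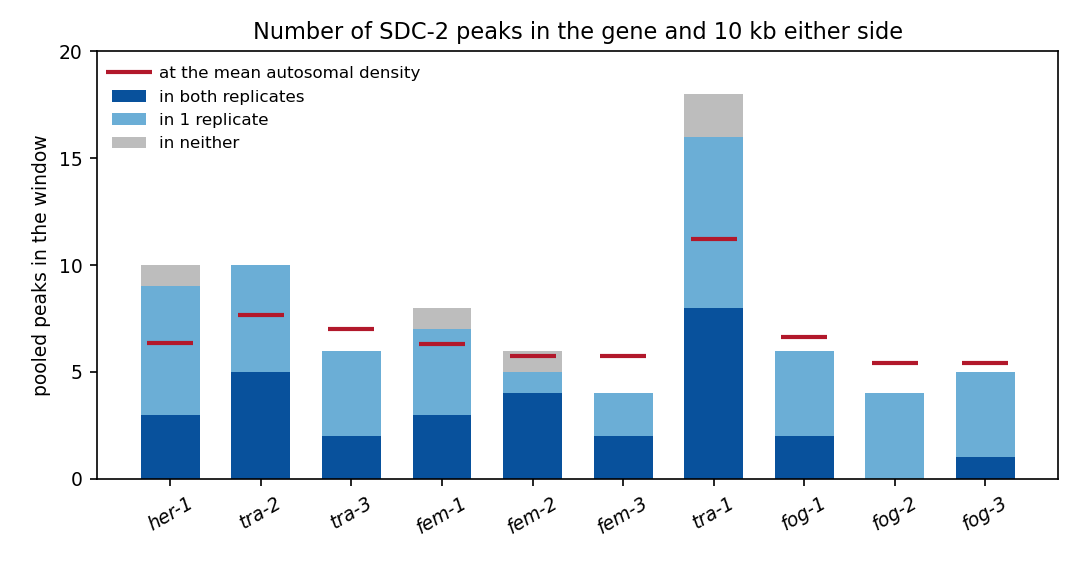
Number of pooled SDC-2 peaks in the gene and 10 kb either side for each of the 10 genes, split by how many replicate lists had a summit within 100 bp, with the number that the mean autosomal density gives for the window's length as a red line. Of the 10 windows those of her-1 (10 against 6.34) and tra-1 (18 against 11.2) exceed the line most, and that of fem-3 (4 against 5.74) lies below it.

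Most summits were nearest to the start of a gene other than the 10. Of the 77 summits, 23 lay inside 1 of the 10 genes. By nearest protein-coding start, 27 had the 5′ end of one of them and 50 that of another gene. The 23 and the 50 overlap, mainly at tra-1. Its strongest peak lay inside the gene but was nearest to the start of Y47D3A.31, 14604 bp away. The windows hold between 1 (tra-1) and 10 (fog-2) other protein-coding genes. Coding exons held 26% of the 77 summits, untranslated exons 9.09%, introns 31.2% and intergenic sequence 33.8%. Over all autosomal pooled peaks these shares were 29.6%, 5.84%, 29.2% and 35.3%.

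The starts of these genes carried weak peaks. A pooled summit within 1000 bp of an annotated 5′ end was found at 7 of the 10, against 44.5% of autosomal protein-coding genes, and tra-2, fog-2 and fog-3 had none. The signals of these 7 ranged from 22.6 (fem-3) to 38.7 (fem-1), with her-1 at 36.0 through its inner promoter. Of the 77 summits 42.9% lay within 1000 bp of some protein-coding 5′ end, against 46.9% of all autosomal pooled peaks.

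Of 38 other genes of the pathway, listed by role, 36 were found by symbol in the annotation. An IDR summit at the start, no more than 1000 bp from a 5′ end, was found at 4 of the 28 on autosomes and 4 of the 8 on X, where 3.6% of autosomal genes and 11.2% of X genes did. On X these were xol-1, the switch gene (signal 216, 157 bp from the start), ceh-39, an X signal element (441, 221 bp), sdc-1, a partner of SDC-2 (102, 301 bp), and sex-1, a nuclear receptor of the X signal (99.1, 880 bp). On autosomes they were sea-2, an autosomal signal element (96.5, 299 bp), sup-26, an RNA-binding regulator of tra-2 (150, 742 bp), atx-2, an ataxin-related RNA regulator (285, 65 bp), and larp-1, a La-related RNA-binding protein (186, 655 bp, with wip-1 closer). Stronger peaks lay elsewhere in the windows of xol-1 (12900, rank 12, among 7 IDR peaks), ceh-39 (1890, rank 34, among 4) and sup-26 (188, rank 262, among 4). At the other genes named, the peak given was the strongest of the window.

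By role, the group upstream of her-1 had 5 of 9 genes with such a summit, 4 of 6 on X and 1 of 3 on autosomes. Partners of the TRA and FEM proteins had 1 of 5, germline regulators of tra-2, fem-3 and fog RNAs 2 of 17, and TRA-1 targets 0 of 5. The strongest of these autosomal peaks, at atx-2, had signals of 140 (rank 126) and 141 (rank 147) in the replicates, while the strongest of the 10 genes reached rank 913 in the pooled list. These lists were put together with earlier results of these data known and are not independent evidence of a direction.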

How the data were processed

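The members and gene lists were chosen with earlier results of these data known. The authors called peaks for every replicate and for the pooled reads against 1 shared control alignment and made the IDR list from the results, according to deposited README texts. The signal per peak was deposited by the authors and is comparable within a list only. The sources used here do not name the peak caller, aligner or IDR threshold. The ce11 lists were used with the WBcel235 genome and Ensembl release 115 annotation. All peaks lay within the chromosome lengths. Mitochondrial peaks and ce10 lists were left out.

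Summits, given from 1, were assigned to windows of 10000 bp around genes, to 5′ ends within 1000 bp, and to coding exon, untranslated exon, intron or intergenic sequence, the first that applied, from protein-coding genes. Replicate summits were matched to the nearest within 100 bp. 8-mers were sought within 100 bp of summits. All 10 genes, their IDR peaks and best peaks, every pooled peak at her-1 and listed pathway genes with an IDR summit at a 5′ end are named. Position functions were tested on simulated data. Alternatives were other windows, overlap, distances, match limits, stronger peaks and single replicates. Python 3.11.15, pandas 2.3.3, scipy 1.17.1. Sequences at peaks of the her-1 window outside the gene are not reported here.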

Additional observations from a re-analysis of the deposited data

How the results depend on the processing

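Of 46 alternative values, 33 stayed within 1.5 times the count or within the SD between replicates (496 for the best her-1 rank, 2.12 for its place). Each SD comes from only 2 values, those of the single replicates. The same values were among the alternatives judged by it, so their labels show little. With 1000 bp either side of a gene in place of 10000 bp, 0 of the 10 genes had an IDR peak in the window, and there were 29 pooled summits, 8 of them in both replicates, with 10706 as the best her-1 rank. With 5000 bp it was 1 gene and 17 summits in both replicates, and with 20000 bp 124 pooled summits. IDR peaks at or above the list's median signal left 0 genes, and pooled peaks at or above their median left 44 summits. Matching within 50 bp gave 17 summits in both replicates, and within 500 bp 46. With 1 replicate left out, using as many of its strongest peaks as there were IDR peaks, 1 to 3 genes had such a peak, and the best her-1 rank was 1376 to 2078. The count of 0 genes with an IDR summit at a 5′ end held under every alternative run. With 500 bp, the outermost 5′ end or the stronger IDR peaks it could only be 0, so these values, counted among the 33, show nothing. It could have changed with 2000 bp or with the strongest peaks of a single replicate, and did not. The place of her-1 stayed from 2 to 5. Windows of 10000 bp around the 5′ end, of equal length for all genes and added after the data were seen, left 57 pooled summits, 20 of them in both replicates. No paired analysis was possible because there is 1 group. The unknown depth limits what the absence of a listed peak can show.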

Other observations

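Some genes that act with or after the 10 described had IDR peaks near them but not at their starts, and they were picked after their values were seen. The window of dmd-3, a DM domain gene of male tail development that acts below TRA-1, held a pooled peak of signal 358 and rank 102. At fkh-6, a forkhead gene of the gonad, the best peak had 130 (rank 498). The RNA helicase gene laf-1, a regulator of tra-2, had 171 (rank 303), and the X gene tra-4, a zinc finger partner of the pathway, had 274 (rank 136). Among germline RNA regulators, mog-3 had 118 (rank 601) and mog-5 had 87.1 (rank 1196), while gld-1, which represses tra-2 translation, had no peak above 40.5 (rank 8163). The windows of fbf-1 and sdc-2, the tagged gene, held no pooled summit. Their chromosomes, II and X, had 2.88 and 3.22 per 10 kb. How reads map there and the control reads were not examined, so an absence of SDC-2 cannot be read from this. At dmd-3, mog-3 and the others with an IDR peak, the peak lay over 1000 bp from the gene's own 5′ ends, and its gene was not assigned.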
